A study of Mus musculus with 34 samples.

Results

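The data described here are the ChIP-seq peaks around 10 genes of the immediate early response in mouse bone marrow-derived dendritic cells (BMDCs). The genes were named by a list: Fos, Fosb, Fosl2, Jun, Junb, Atf3, Egr1, Egr2, Ier3 and Myc. They are 10 of 21938 protein-coding genes in GENCODE vM21, and all 10 were found. Peaks of 30 deposited lists were counted at each promoter, taken as 2.5 kb before and after the first base of its longest transcript, and within 100 kb of that base.

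Immediate early genes are switched on within minutes of a stimulus without new protein synthesis. FOS, JUN and ATF proteins pair through leucine zippers to form AP-1, a family of dimers that bind the letters TGANTCA. The zinc finger factors EGR1 and EGR2, the stress-response protein IER3 and the growth regulator MYC rise in the same early wave in many cells. In dendritic cells and macrophages, ligands of Toll-like receptors such as lipopolysaccharide (LPS) are known to induce several of them through MAP kinases and NF-κB.

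Per the labels, all cells came from C57BL/6 mice aged 8 weeks and carried CreER, a Cre recombinase that tamoxifen activates and that is driven from the Rosa26 locus. Marrow was cultured for 6 days with GM-CSF, and 4-OH tamoxifen was given on the first day to all cultures. The cells labelled WT were CreER and those labelled KO were CreER;CTCF fl/fl, in which both Ctcf alleles are flanked by loxP sites. WTLPS and KOLPS were the same cells after LPS at 100 ng/ml for 3 h. There was a list in every condition for CTCF, for SMC1, a subunit of cohesin, for p65 (RelA), a subunit of NF-κB, and for the histone marks H3K27ac, H3K4me1, H3K4me3 and H3K27me3. STAT5 was mapped in WT and in KO cells given GM-CSF anew for 15 min. Each antibody and condition had 1 list, so that no value below has a replicate error and no test between conditions was made. How completely Ctcf was deleted cannot be read from peaks, and as they come from bulk cells, fewer cells with a bound site and less binding per cell cannot be told apart.

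The lists held between 504 peaks (p65 in KO) and 96475 peaks (H3K27me3 in WT). H3K4me3, the mark of active starts, lay at the promoters of 9 of 9 dendritic and myeloid markers in all 4 conditions, and at 0 of 4 markers of granulocyte precursors. It also lay at 1 of 4 B cell markers (Pax5), 1 of 4 T cell markers (Lck), 1 of 3 erythroid markers (Klf1) and both fibroblast markers (Col1a1 and Pdgfra). The part of other cells in the values below was not tested.

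The 10 genes lie on 10 chromosomes (GRCm38, mm10) and differ in how crowded their surroundings are. Fos (chr12:85473890-85477273, plus strand) and Myc (chr15:61985391-61990374, plus strand) had no other protein-coding start within 100 kb, whereas the median protein-coding gene had 3. Jun (chr4:95049034-95052222, minus strand), Fosl2 (chr5:32135801-32157842, plus strand) and Egr2 (chr10:67535475-67542188, plus strand) each had 1, and Atf3 (chr1:191170296-191218039, minus strand) had 2, of which 1 was the start of Batf3. Egr1 (chr18:34859823-34864984, plus strand) had 4. Fosb (chr7:19302696-19310051, minus strand) and Ier3 (chr17:35821684-35822923, plus strand) had 10 each, and Junb (chr8:84974484-84978718, minus strand) had 16. A peak near the last 3 genes may therefore belong to a neighbour, and the start of Flot1 lay only 1546 bp from that of Ier3.

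All 10 promoters carried H3K4me3 in all 4 lists, where the share over all protein-coding genes was 56.7%, 57%, 57.2% and 56.2% in WT, WTLPS, KO and KOLPS. H3K27ac, a mark of active promoters and enhancers, lay at 9, 8, 8 and 10 of 10 promoters in WT, WTLPS, KO and KOLPS (all genes: 44.1%, 41.3%, 44.5% and 40.8%). The exceptions were Fosb, which had H3K27ac in WT and KOLPS, and Egr1, which had it in KOLPS alone. H3K27me3, the mark of Polycomb repression, was found at Fosb in WT, WTLPS and KO and at Fos in WT. That is 2, 1, 1 and 0 of 10 genes against 27.1%, 20.8%, 27.6% and 11.8% of all genes. The H3K27me3 lists ended at different p-values (lowest −log10 p of 2.719 in WT and 3.469 in KOLPS), and at the limit of KOLPS applied to all 4 the mark lay at 2, 1, 0 and 0 promoters in WT, WTLPS, KO and KOLPS.

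**Figure D1:**
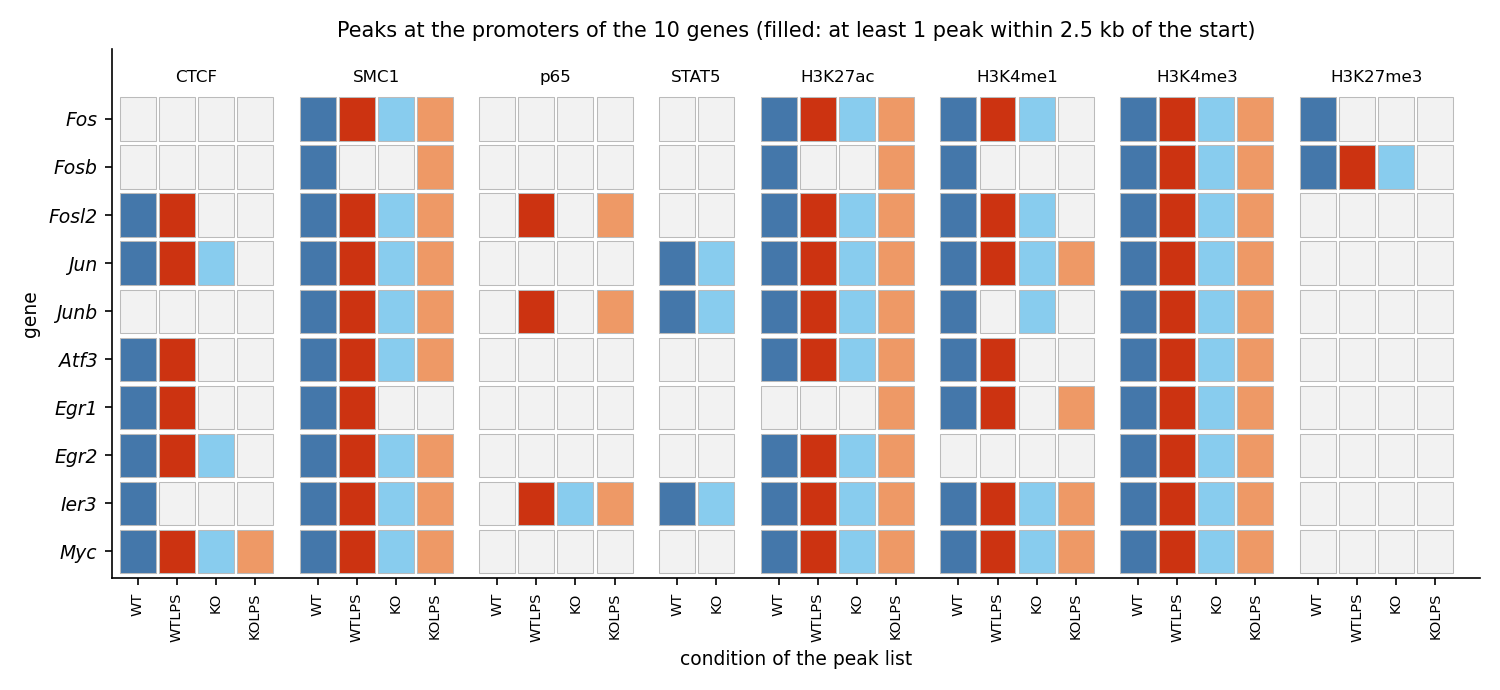
Presence of at least 1 peak within 2.5 kb of the start of each of the 10 genes (rows) in each of the 30 lists (columns, grouped by antibody and coloured by condition). H3K4me3 is filled throughout, p65 at 3 genes after LPS, and CTCF at 7 genes in WT but 1 in KOLPS.

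H3K4me1, the mark that flanks active starts and covers enhancers, lay at 9, 7, 6 and 4 promoters in WT, WTLPS, KO and KOLPS (all genes: 57.1%, 57.3%, 56.8% and 46.5%). Jun, Ier3 and Myc had it in all 4 lists, and Egr2, which encodes a zinc finger factor, had it in none. SMC1 lay at 10, 9, 8 and 9 promoters in WT, WTLPS, KO and KOLPS, against 30.4%, 27.1%, 21.6% and 13.9% of all genes. Among the 11958 genes with H3K4me3 in all 4 lists, SMC1 was called at 46.1%, 40.7%, 36% and 23.5%. The genes without SMC1 in a list were Fosb in WTLPS and KO and Egr1 in KO and KOLPS.

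Promoter patterns differed among the 10 genes. Of the 30 lists, Atf3 and Egr2, Atf3 and Fosl2, and Jun and Myc each differed in 3, the smallest number for any pair. Fosb, a FOS family member with peaks in 12 lists, and Ier3, with peaks in 22, differed in 16, the largest number. Among 45 other AP-1, immediate early and MYC-network genes, the nearest pattern to that of Myc was Batf2 with 0 lists differing, which 161 protein-coding genes also matched. The nearest to Fosl2 was Ier2, to Jun Batf3, to Atf3 Batf and to Egr2 Gadd45b, each with 1 list differing. Fosb had no near neighbour, as Arc, the closest, differed in 6 lists.

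Sequences at the strongest or most informative sites were read from the reference genome (GRCm38). Each run covers 50 bp on either side of a p65 summit, and capitals mark letters that match the NF-κB motif or the STAT motif TTCNNNGAA on either strand. Such a match is a description and does not show that a protein bound these letters. The site 2.1 kb after the Junb start is shown because its p65 and STAT5 summits lay 1 bp apart, that at −2.4 kb because it was called in WTLPS alone, that at Fos because it was called in all 4 conditions, and that at Fosl2 because it held the most p65 fragments.
Junb +2.1 kb, p65 summit, chr8:84976573-84976673, plus strand: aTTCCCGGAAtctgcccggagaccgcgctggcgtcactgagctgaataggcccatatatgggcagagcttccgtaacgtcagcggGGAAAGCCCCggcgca
Junb −2.4 kb, p65 summit, chr8:84981079-84981179, plus strand: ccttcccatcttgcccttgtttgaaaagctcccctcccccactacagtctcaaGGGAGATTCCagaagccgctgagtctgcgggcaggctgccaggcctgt
Fos −49.8 kb, p65 summit, chr12:85424008-85424108, plus strand: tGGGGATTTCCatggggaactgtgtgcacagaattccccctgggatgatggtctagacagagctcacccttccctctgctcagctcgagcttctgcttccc
Fosl2 +32.9 kb, p65 summit, chr5:32168661-32168761, plus strand: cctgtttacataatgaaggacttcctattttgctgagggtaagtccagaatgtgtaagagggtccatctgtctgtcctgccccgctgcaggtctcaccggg

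The Junb +2.1 kb run held a STAT match near its first base and an NF-κB match near its last. The Junb −2.4 kb and Fos −49.8 kb runs each held 1 NF-κB match, and the Fosl2 run held none. Over the 32 p65 sites of WTLPS within 100 kb of the 10 genes, 6 had an NF-κB match within 50 bp of the summit. The share of all 5465 WTLPS summits was 11.9%. Member sites were read at the summit of the list where they were strongest, which was not always WTLPS. An AP-1 match (TGANTCA) was near 3 of 32 (all summits 11.2%) and a STAT match near 3 of 32 (all summits 4.87%).

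Promoter windows from RefSeq (GRCm38.p6), from 250 bp before to 50 bp after the start, were matched by symbol for 8 of 10 genes, and Egr1 and Myc had no entry. Counted from the RefSeq start, NF-κB letters began at −214 in Fos, −188 in Fosb, −92 in Ier3 and at 2 overlapping places in Fosl2. Of 32851 promoters, 4.51% held the motif. At Fosl2 the RefSeq start lay 671 bp from the GENCODE start used for peak distances. The EGR motif GCGNGGGCG began at −50 in Fosb and −79 in Fosl2 (5.55% of promoters), and a CArG box, the site of serum response factor, at −72 in Egr2 (1.63% of promoters). TATAAA began at −33 in Fos and at the start of Junb (13.6% of promoters). None of these 8 windows held TGANTCA (7.81%), TGACGTCA (1.79%), TTCNNNGAA (8.3%) or the CTCF core (0.557%), which says only that these letters are not there. The Ier3 promoter p65 summit had no NF-κB match within 50 bp. The upstream parts of 2 windows are printed, with NF-κB and TATA letters in capitals. They were chosen because Ier3 had a p65 peak over this stretch and Fos, with like letters, had none.
Ier3 start region, chr17:35821463-35821683, plus strand: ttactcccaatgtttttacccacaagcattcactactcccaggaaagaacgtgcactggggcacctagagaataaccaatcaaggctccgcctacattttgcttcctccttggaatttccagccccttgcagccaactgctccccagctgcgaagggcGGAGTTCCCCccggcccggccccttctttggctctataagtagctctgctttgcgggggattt
Fos start region, chr12:85473640-85473889, plus strand: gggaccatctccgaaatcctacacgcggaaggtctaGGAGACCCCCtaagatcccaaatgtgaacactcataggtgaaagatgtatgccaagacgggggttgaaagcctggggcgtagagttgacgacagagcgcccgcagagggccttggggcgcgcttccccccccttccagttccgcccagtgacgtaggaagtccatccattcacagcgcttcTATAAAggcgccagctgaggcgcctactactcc

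After LPS, p65 peaks were more numerous around 7 of the 10 genes. Within 100 kb, p65 peaks numbered 5, 32, 5 and 22 in WT, WTLPS, KO and KOLPS over the 10 genes together. More peaks in WTLPS than in WT were found at Fos, Fosb, Fosl2, Junb, Atf3, Egr2 and Ier3 (7 of 10, all genes 30.1%), and fewer at none. The same 7 genes had more peaks in KOLPS than in KO (all genes 14.9%). Jun and Egr1 had no p65 peak in any list, and Myc had 1 in each WT list and none in the KO lists. The median number per gene was 3.5 in WTLPS and 2.5 in KOLPS, against 0 over all protein-coding genes and 0 over genes with H3K4me3 throughout.

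**Figure D2:**
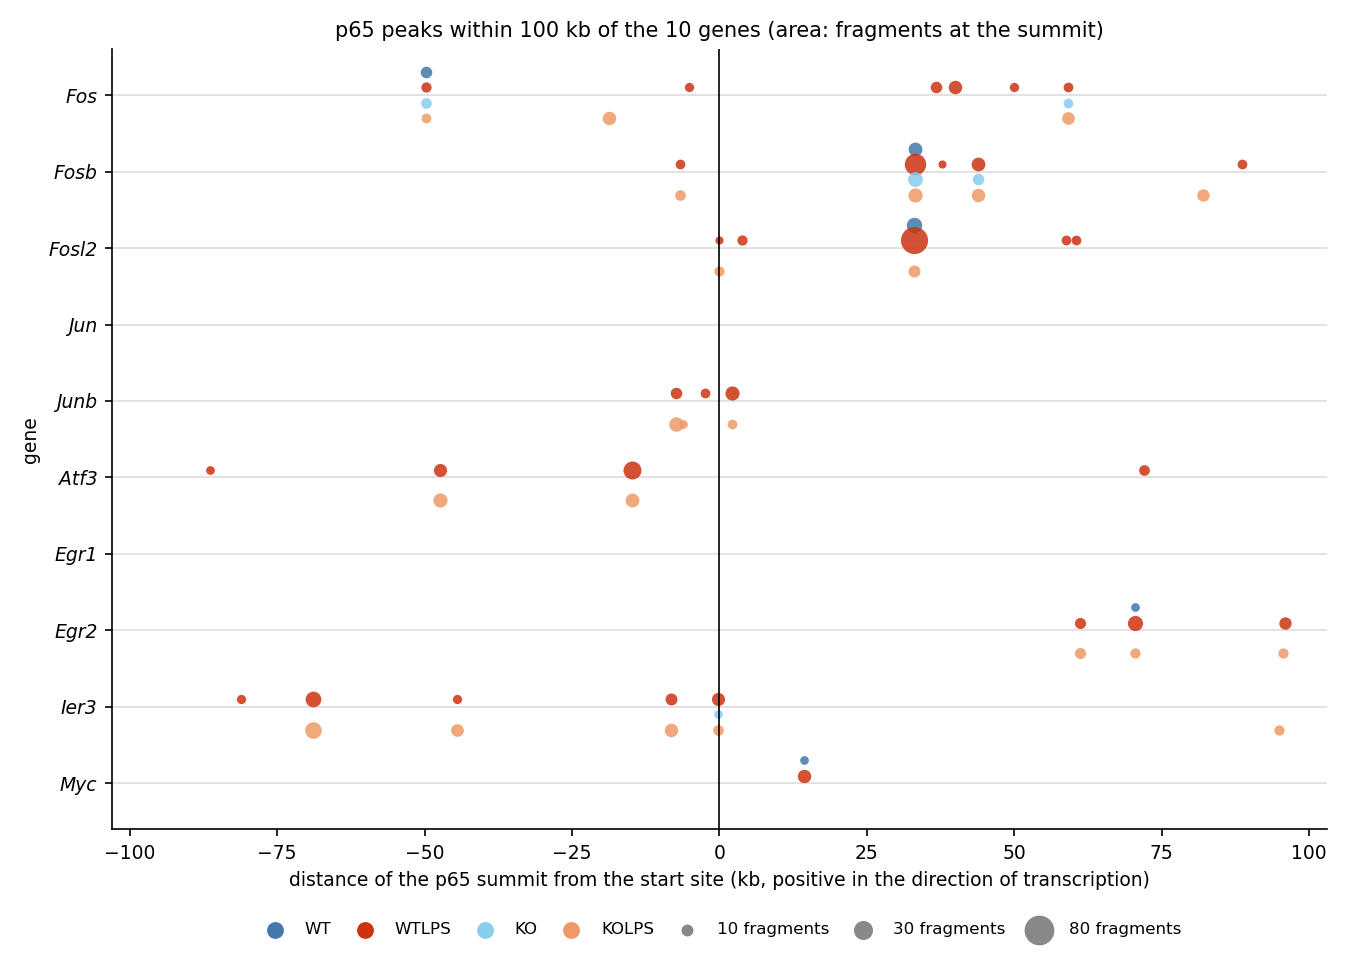
Position of every p65 peak within 100 kb of the 10 genes, in kb from the start and positive in the direction of transcription, with 1 row of points per condition and area in proportion to the fragments at the summit. WTLPS has 32 peaks and KOLPS 22, and the largest, with 77 fragments, lies 32.9 kb after the start of Fosl2.

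At promoters, p65 was called at 0, 3, 1 and 3 of 10 genes in WT, WTLPS, KO and KOLPS, while the share of all protein-coding genes was 0.474%, 2.86%, 0.342% and 1.86%. The 3 genes were Fosl2, Junb and Ier3 in both LPS lists. All 3 had a promoter peak in WTLPS and none in WT (all genes 2.42%). None of the 10 had a promoter peak in WTLPS and none in KOLPS, which 1.97% of all genes did. Among the 45 other genes, 7 had a p65 promoter peak in each LPS list. Ier5 (fold 7.545), Ier2 (fold 7.006) and Csrnp1 (fold 4.312) had it in WTLPS and not in KOLPS, and Klf10 (fold 12.658), Nr4a3 (fold 7.155) and Jund (fold 6.604) had it in KOLPS and not in WTLPS. Rel, Dusp2, Zfp36 and Maff had it in both.

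Fold enrichment, the deposited ratio of fragments to local background, gave the height of these peaks. At Ier3, an inhibitor of stress-induced cell death, the fold of the promoter peak was 10.2 in WTLPS, 5.3 in KO and 7.2 in KOLPS, with none called in WT. At Junb, a JUN family member, the promoter had peaks of fold 11.9 and 5.9 in WTLPS and 1 of 6.1 in KOLPS. At Fosl2, which encodes FRA2, it was 4.3 in WTLPS and 6.6 in KOLPS. Ier3 and Junb were thus lower and Fosl2 was higher in KOLPS, and the next values show how far counting error reaches.

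The fragments at each summit were recovered from the deposited fold and p, and set against the background coverage of each library, which for p65 was 0.713, 0.855, 0.705 and 0.817 fragments in WT, WTLPS, KO and KOLPS. Intervals are exact 95% intervals of the ratio per unit of background and cover counting error only. The p65 lists ended at different p-values (lowest −log10 p 6.055, 4.346, 5.458 and 5.39), so that a peak of 6 fragments could enter the WTLPS list and not the others. Where no peak was called, the highest fragment number that the list could have missed was used, although a narrow pile of reads can also go uncalled.

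The strongest p65 site of the 10 genes lay outside genes, 32.9 kb after the start of Fosl2. It had 25 fragments in WT, 77 in WTLPS, none called in KO and 15 in KOLPS. The ratio of WTLPS to WT was 2.567 (1.616 to 4.208), and that of KOLPS to WTLPS was 0.204 (0.109 to 0.358), the lowest of any member site. At the same place SMC1 was called in both WT lists but in neither KO list, whereas H3K27ac and H3K4me1 were called in all 4. The promoter peak of Fosl2 had 7 fragments in WTLPS and 11 in KOLPS (ratio 1.645, 0.582 to 5.006).

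The next strongest lay 33.1 kb after the start of Fosb, over an exon of Ppm1n. It had 20, 48, 23 and 21 fragments in WT, WTLPS, KO and KOLPS, so that KOLPS stood near both unstimulated lists. Its ratio of KOLPS to WTLPS was 0.458 (0.261 to 0.78). CTCF was called there in WT and WTLPS and not in KO or KOLPS. A site 43.9 kb after the Fosb start, in an intron of Vasp, did not share this: it had 20 fragments in WTLPS, 14 in KO and 19 in KOLPS (ratio 0.995, 0.502 to 1.963).

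Near Ier3 the 4 p65 sites called in both LPS lists did not differ beyond counting error. The strongest, at −68.9 kb, had 26 fragments in WTLPS and 29 in KOLPS (ratio 1.168, 0.664 to 2.064), and neither unstimulated list called it. The site at −8.2 kb had 15 and 19, that at −44.6 kb 9 and 17, and the promoter site 18 and 12 (ratio 0.698, 0.307 to 1.532). All 4 intervals of KOLPS over WTLPS spanned 1.

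Among sites called in both LPS lists, Junb and Atf3 each had 1 that was higher and 1 that was lower in KOLPS by fragment number. Both genes also had sites called in only 1 LPS list. At Junb +2.1 kb, whose sequence holds both NF-κB and STAT letters, there were 21 fragments in WTLPS and 10 in KOLPS (ratio 0.499, 0.21 to 1.106), and at −7.3 kb 14 and 22. At Atf3, a stress-induced repressor of inflammatory genes, the site at −14.8 kb had 34 and 20 (ratio 0.616, 0.336 to 1.101) and that at −47.4 kb 18 and 21. None of these intervals left out 1, so a difference was not detectable at this depth.

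At Egr2 the strongest site, 70.5 kb after the start, had 8 fragments in WT, 24 in WTLPS, none called in KO and 11 in KOLPS (KOLPS over WTLPS 0.48, 0.212 to 1.018). The site at +61.0 kb had 13 in both LPS lists. The only p65 site near Myc, at +14.3 kb, had 8 fragments in WT and 19 in WTLPS and was not called in KO or KOLPS, giving a ratio of 0.331 (0.108 to 0.861). Near Fos, the site at +40.0 kb had 19 fragments in WTLPS and was not called in KOLPS (0.331, 0.108 to 0.861), while that at −18.7 kb had 19 in KOLPS and was not called in WTLPS (3.979, 1.437 to 13.635). The Fos site at −49.8 kb, printed above, had 14, 11, 12 and 10 fragments in WT, WTLPS, KO and KOLPS, and the intervals of WTLPS over WT and of KOLPS over WTLPS spanned 1.

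Of 37 p65 sites in all, 17 were called in both LPS lists, 15 in WTLPS alone and 5 in KOLPS alone. At the 5 sites called in both WT and WTLPS, the interval of WTLPS over WT lay above 1 at 3 (all shared peaks 27.5%). At the 17 shared by WTLPS and KOLPS, the interval of KOLPS over WTLPS lay below 1 at 2, those of Fosl2 and Fosb (all shared peaks 25.4%). The median ratio at the 17 was 1.047, and over all 1242 shared peaks 0.717.

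Around the 10 genes KOLPS had 0.688 times the p65 peaks of WTLPS (interval 0.381 to 1.221), whereas the whole KOLPS list had 0.321 times. Intervals of such ratios of peak numbers, here and below, are exact binomial intervals of the summed counts and do not use background coverage. They treat peaks as independent, although many sites were called in both lists. They do not measure the spread between replicates or genes. Fewer p65 peaks in KOLPS than in WTLPS were found at Fos, Fosb, Fosl2, Atf3 and Myc (5 of 10, all genes 26.1%) and equal numbers at the other 5. With peaks of −log10 p of at least 10 alone, the direction turned, with 17 peaks in WTLPS and 19 in KOLPS (ratio 1.118), while the whole lists gave 0.431. Below this limit lay 15 of the 32 WTLPS peaks and 3 of the 22 KOLPS peaks.

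Most p65 sites of WTLPS lay under SMC1 and H3K27ac peaks. At the 32 sites, SMC1 was called at 31, 32, 27 and 28 in WT, WTLPS, KO and KOLPS (all p65 sites of WTLPS: 72.3%, 88%, 66.8% and 65.2%), and at 25 in every list (all sites 56.5%). H3K27ac was called at 26, 27, 27 and 27 (all sites: 64.9%, 75.5%, 66.4% and 66.6%), and at 22 in every list (all sites 50.4%). STAT5 was called at 16 of the 32 in WT and at 16 in KO, both without LPS (all sites 27% and 21.4%). CTCF was called at 4, 3, 1 and 1 (all sites: 7.78%, 6.39%, 1.89% and 1.06%), and H3K27me3 at none.

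STAT5, which GM-CSF activates through JAK2, lay at the promoters of Jun, Junb and Ier3 in both lists, which is 3 of 10 genes against 3.96% of all genes in WT and 3.29% in KO. The fold was 5.2 in WT and 5.5 in KO at Jun and 12.5 and 8.5 at Junb. Ier3 had peaks of 7.7 and 9.0 in WT and 1 of 7.4 in KO. The WT peak missing from KO, with 20 fragments, lay 1.3 kb after the Ier3 start and at the promoter of Flot1.

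Within 100 kb there were 47 STAT5 peaks in WT and 39 in KO, and every gene had at least 1 in each list. Atf3 had the most, with 17 in WT and 13 in KO, and Batf3 lies in the same window. Egr2 followed with 10 and 7, Ier3 with 6 and 4, and Fos, Fosb and Fosl2 had 1 more in KO than in WT. Of 52 sites, 34 were called in both lists, 13 in WT alone and 5 in KO alone. The ratio of peak numbers in KO to WT was 0.83 (0.528 to 1.296), beside 0.837 for the whole lists (6850 and 8185 peaks). With peaks of −log10 p of at least 10 alone, 30 were found in each list near the 10 genes, while the whole lists gave 0.829.

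Some of the strongest STAT5 sites are shown with 50 bp on either side of the summit, with TTCNNNGAA in capitals. They are set beside the promoter site of Ier3 for comparison. The Ier3 site at −81.0 kb, as tall in WT as that at Fosl2 +60.3 kb, is not printed.
Atf3 +59.2 kb, STAT5 summit, chr1:191124130-191124230, plus strand: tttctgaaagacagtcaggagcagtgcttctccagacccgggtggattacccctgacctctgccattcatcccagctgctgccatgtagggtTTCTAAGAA
Egr2 +61.0 kb, STAT5 summit, chr10:67598806-67598906, plus strand: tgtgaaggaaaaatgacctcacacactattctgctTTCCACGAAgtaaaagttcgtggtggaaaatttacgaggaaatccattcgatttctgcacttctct
Fosl2 +60.3 kb, STAT5 summit, chr5:32196096-32196196, plus strand: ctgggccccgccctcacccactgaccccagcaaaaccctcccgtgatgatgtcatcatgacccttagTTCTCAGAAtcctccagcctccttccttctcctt
Egr2 −5.9 kb, STAT5 summit, chr10:67531956-67532056, plus strand: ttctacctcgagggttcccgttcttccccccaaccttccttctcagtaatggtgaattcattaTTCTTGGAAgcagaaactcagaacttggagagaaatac
Ier3 −0.4 kb, STAT5 summit, chr17:35821239-35821339, plus strand: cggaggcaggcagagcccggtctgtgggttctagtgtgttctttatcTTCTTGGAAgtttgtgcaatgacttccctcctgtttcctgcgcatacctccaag

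All 5 runs held 1 STAT match. Over the 47 WT sites 12 had one, and over the 39 KO sites 13, against 37.9% of all summits in each list. Here too, member sites were read at the summit of the list where they were strongest. The Egr2 +61.0 kb site was also a p65 site in both LPS lists.

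The STAT5 sites tallest in WT, named next, were lower in KO per unit of background (1.328 fragments in WT and 1.704 in KO). They were ranked by their height in WT, which favours a lower value in KO. Atf3 +59.2 kb had 96 fragments in WT and 81 in KO, a ratio of 0.658 (0.483 to 0.893). Egr2 +61.0 kb had 80 and 54 (0.526, 0.365 to 0.752), and Fosl2 +60.3 kb had 67 and 43 (0.5, 0.333 to 0.744). Ier3 −81.0 kb had 67 and 57 (0.663, 0.457 to 0.958).

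Further sites of these genes were lower in KO too, and others were not. Ier3 −8.3 kb had 48 and 29 fragments in WT and KO (0.471, 0.286 to 0.762), Fosl2 +58.7 kb had 37 and 24 (0.505, 0.289 to 0.868) and Egr2 +97.2 kb had 33 and 24 (0.567, 0.321 to 0.988), while a site at Ier3 +1.3 kb had 20 in WT and was not called in KO (0.312, 0.119 to 0.739). At the next sites the interval spanned 1. Egr2 −5.9 kb had 51 fragments in both lists (0.779, 0.518 to 1.172), and Egr2 +91.2 kb had 46 in WT and 52 in KO (0.881, 0.581 to 1.34). The Ier3 promoter had 17 and 19 (0.871, 0.429 to 1.784). The strongest site near Jun, at the promoter of Mysm1, had 41 and 50 (0.95, 0.616 to 1.473), and the Junb site at +2.1 kb had 28 and 22 (0.612, 0.334 to 1.11). In contrast, near Myc a site in an intron of Pvt1, 86.1 kb after the start, had 24 fragments in WT and was not called in KO (0.26, 0.101 to 0.598).

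The strongest sites of the remaining genes, Fosb, Fos and Egr1, had few fragments. Fosb +44.0 kb had 28 and 16 (0.445, 0.225 to 0.852). Fos −50.8 kb had 18 and 15, and Egr1 +81.9 kb had 13 and 15, both with intervals that spanned 1. Over the 34 shared sites, the interval of KO over WT lay below 1 at 9 and above 1 at 0 (below 1 at 16.1% of 5299 shared peaks). The median ratio was 0.678 near the 10 genes and 0.747 over all shared peaks.

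**Figure D3:**
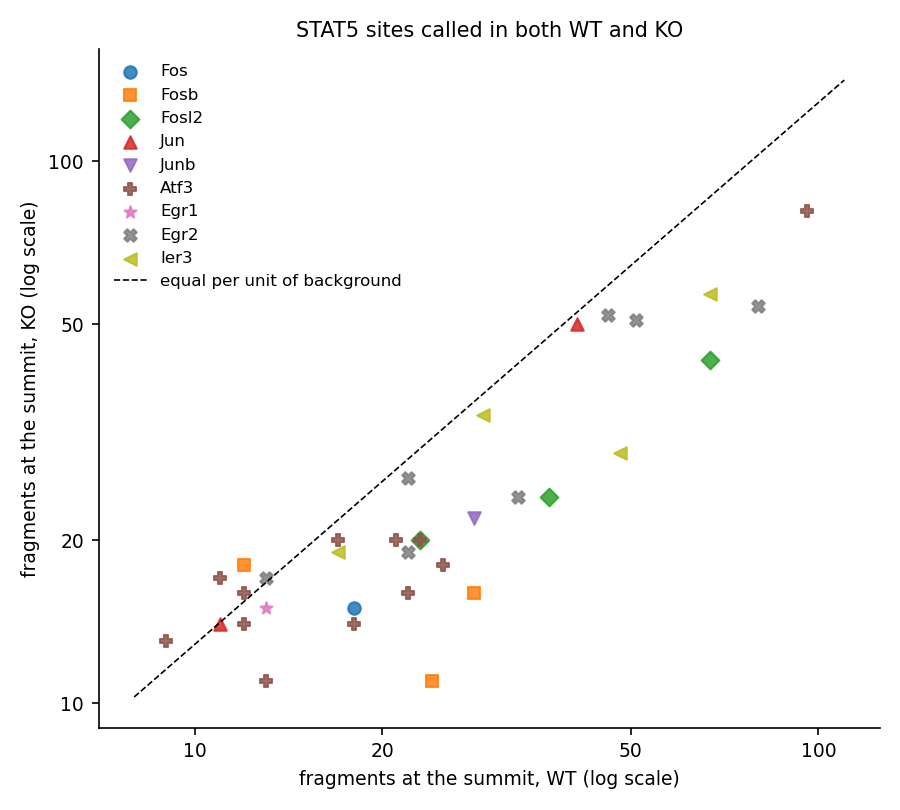
Fragments at the summit in WT (x axis) and KO (y axis), both on log scales, for the 34 STAT5 sites called in both lists, by gene; the dashed line marks equal fragments per unit of background. The sites tallest in WT, of Atf3, Egr2, Fosl2 and Ier3, lie below the line.

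CTCF, the zinc finger protein that anchors chromatin loops, lay at 7, 6, 3 and 1 of 10 promoters in WT, WTLPS, KO and KOLPS (all genes: 29.5%, 27.2%, 19.1% and 10.1%). Fosl2, Atf3, Egr1 and Ier3 had a CTCF promoter peak in WT and none in KO (4 of 10, all genes 16.5%). Fosl2, Jun, Atf3, Egr1 and Egr2 had one in WTLPS and none in KOLPS (5 of 10, all genes 19.3%). Fos, Fosb and Junb had none in any list, and Myc had one in all 4.

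**Figure D4:**
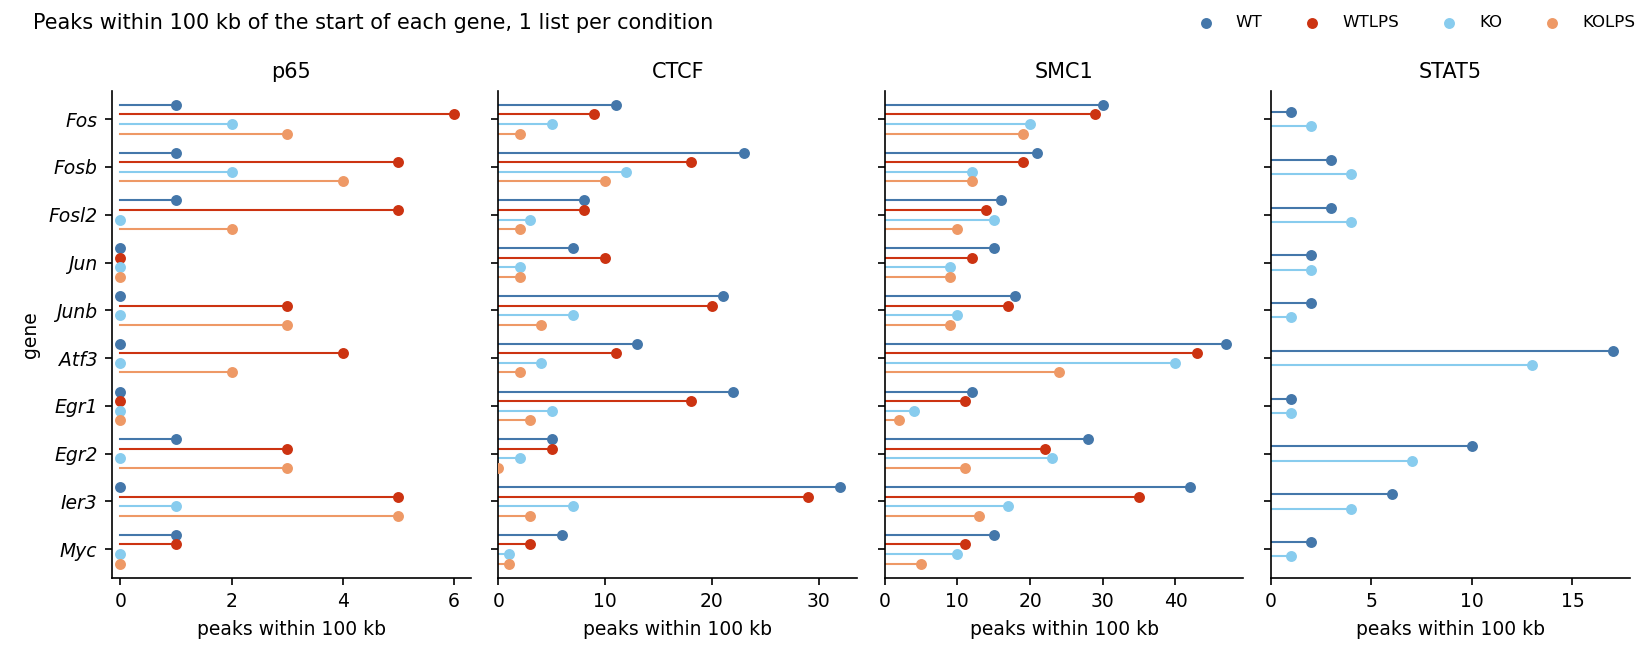
Number of p65, CTCF, SMC1 and STAT5 peaks within 100 kb of each gene (x axes, 1 panel each), with 1 line per condition. CTCF and SMC1 peaks are fewer in KO than in WT at every gene, and p65 peaks are more numerous with LPS at 7 genes.

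At the Myc promoter, −2.0 kb, CTCF had 82, 69, 31 and 15 fragments in WT, WTLPS, KO and KOLPS (fold 17.5, 15.4, 8.1 and 4.2). It was the only member promoter called in all 4 lists, and its summit holds a match to the CTCF core, in capitals.
Myc −2.0 kb, CTCF summit, chr15:61983389-61983489, plus strand: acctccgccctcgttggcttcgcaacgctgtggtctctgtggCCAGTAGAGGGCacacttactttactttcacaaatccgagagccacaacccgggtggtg

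At the Jun promoter, −1.2 kb, CTCF had 54, 51 and 23 fragments in WT, WTLPS and KO and none called in KOLPS. Egr2 −1.7 kb was alike, with 54, 44 and 23. Atf3 +0.7 kb had 49 and 29 and Fosl2 −0.8 kb had 29 and 17 in WT and WTLPS, with no peak in either KO list. The 3 promoter sites with the most fragments in WT were those still called in KO.

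Within 100 kb, CTCF peaks numbered 148, 131, 48 and 29 in WT, WTLPS, KO and KOLPS. The ratio of KO to WT was 0.324 (0.229 to 0.452), beside 0.333 for the whole lists, and that of KOLPS to WTLPS was 0.221 (0.143 to 0.333), beside 0.214. The number was lower in KO than in WT at all 10 genes (all genes 84.9%), with 32 and 7 at Ier3 and 23 and 12 at Fosb. Of the 39 sites called in both WT and KO, the interval lay below 1 at 35 (all shared peaks 88.2%), with a median ratio of 0.422 against 0.359 over all shared peaks.

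The strongest CTCF site of each gene in WT was also called in KO, with fewer fragments, at the 8 genes named next. Jun +43.9 kb, the tallest, had 197, 133, 54 and 26 fragments in WT, WTLPS, KO and KOLPS. Fosb +28.1 kb had 182, 184, 52 and 29, Junb +4.3 kb had 149, 91, 29 and 23, and Fos +34.5 kb had 142, 101, 36 and 28. Atf3 −92.4 kb lost less, with 139, 102, 79 and 62, whereas Egr1 +97.4 kb went from 121 and 126 to 18 and 17. The strongest site of Ier3, −81.8 kb, had 99, 78, 39 and 26, and that of Fosl2, +4.2 kb, had 112, 104, 50 and 23. Other tall sites had no peak in KO, among them Egr1 −26.0 kb with 96 fragments in WT, Fosb +33.6 kb with 93, Ier3 +14.7 kb with 93 and Junb +21.7 kb with 81.

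Near the 10 genes 127 of 238 SMC1 sites of WT, which mark cohesin, were also called in KO (53.4%, whole list 34.5%), beside 39 of 146 CTCF sites (26.7%, whole list 23.7%). SMC1 peaks within 100 kb numbered 244, 213, 160 and 114 in WT, WTLPS, KO and KOLPS. The ratio of KO to WT was 0.656 (0.534 to 0.804), against 0.471 for the whole lists, and that of KOLPS to WTLPS was 0.535 (0.423 to 0.675), against 0.301. The median gene of the 10 had 19.5, 18, 13.5 and 10.5 SMC1 peaks in the 4 lists, and the median gene with H3K4me3 throughout had 10, 9, 4 and 2. The number was lower in KO than in WT at all 10 genes (all genes 83.6%). Atf3 had 47 in WT and 40 in KO, Fosl2 16 and 15, and Egr1 12 and 4.

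The share of SMC1 sites still called in KO differed with what else was called there. Of 60 WT sites with CTCF and no H3K27ac, 7 had a KO peak (11.7%, all such SMC1 peaks 9.46%). Of 98 with H3K27ac and no CTCF, 77 did (78.6%, all 69.2%). Of 43 with both, 27 did (62.8%, all 50.5%), and of 37 with neither, 16 did (43.2%, all 36.9%). The order of the 4 kinds near the 10 genes was that of the whole list.

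At the promoters with SMC1 in both lists, the interval of KO over WT lay below 1 at 3 of 8 genes (all genes 25.2%). Jun, Egr2 and Myc were the 3 genes with a CTCF promoter peak in both WT and KO. Their strongest SMC1 summit in the promoter had 79 fragments in WT and 32 in KO, 81 and 28, and 81 and 31. The ratios were 0.41 (0.263 to 0.626), 0.35 (0.219 to 0.544) and 0.387 (0.247 to 0.593). This summit was not always at the same place in both lists. It lay at −1179 bp in WT and −516 bp in KO at Jun, at −1638 and −1004 bp at Egr2, and at −1851 and −1815 bp at Myc. Fos and Junb, with no CTCF promoter peak, had 26 SMC1 fragments in WT and 33 in KO, and 37 and 38. Ier3, Atf3 and Fosl2 had CTCF in WT and not in KO. Their SMC1 fragments were 34 in WT and 43 in KO, 48 and 46, and 77 and 67. The Ier3 summit lay at 1357 bp in WT and −107 bp in KO, and that of Atf3 at 740 and −95 bp. At these last 5 genes the interval of KO over WT spanned 1 by this summit rule. Egr1, which also had CTCF in WT and not in KO, had 32 SMC1 fragments in WT and no SMC1 peak in KO, and Fosb, with no CTCF promoter peak, had 25 in WT and none called in KO. These were 2 of the 10 genes with SMC1 in WT (all genes with SMC1 in WT 44.4%), and genes whose CTCF peak was not called in KO and genes without one both included such a case.

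These fragments are of the strongest SMC1 peak with its summit inside the promoter, and the median ratio of fold between KO and WT over 8 genes was then 0.925 (all genes 0.857). With the strongest peak that merely touched the promoter it was 0.497 (all genes 0.846), as taller peaks with summits outside then counted at Junb (192 fragments in WT) and Fosl2 (118 fragments in WT). The interval of KO over WT then lay below 1 at Junb (0.2, 0.138 to 0.285) and Fosl2 (0.575, 0.419 to 0.782) too, as at Jun, Egr2 and Myc. Neither Junb nor Fosl2 had a CTCF promoter peak in KO. The grouping by CTCF above thus depended on the summit rule, which was chosen after the data were seen.

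H3K4me3 at the starts was lowest in KOLPS at 9 of 10 genes, all but Egr1 (all genes with 4 peaks 84.4%). Fos, partner of JUN in AP-1, had 77, 88, 57 and 46 fragments in WT, WTLPS, KO and KOLPS (KOLPS over WTLPS 0.536, 0.366 to 0.773). Ier3 had 90, 113, 87 and 74 (0.671, 0.494 to 0.907), and Egr2 had 75 in WTLPS and 41 in KOLPS (0.56, 0.373 to 0.83). The interval lay below 1 at 5 of 10 genes, which were these 3, Fosl2 and Atf3 (all genes 37.8%). The median ratio of fold was 0.692 for the 10 genes and 0.699 over all genes with both peaks, so that the 10 genes stood close to the rest. Between WT and KO the median was 0.961 (all genes 0.933), and the interval of each of the 10 spanned 1.

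By the strongest peak with its summit inside the promoter, H3K27ac intervals left out 1 at Junb and Atf3. Junb had 52, 73, 23 and 26 fragments in WT, WTLPS, KO and KOLPS (KOLPS over WTLPS 0.533, 0.327 to 0.844). It was the only one of 8 genes whose interval lay below 1 (all genes 0.678%). This depended on the summit rule, which was chosen after the data were seen. The strongest peak that merely touched the Junb promoter had 52, 73, 45 and 37 fragments, with a ratio of 0.758 (0.496 to 1.141). Its summit lay outside the promoter in KO and KOLPS. Atf3 had 20, 33, 27 and 20, with a ratio of KO to WT of 2.116 (1.143 to 3.98). The median fold ratio of KO to WT by summits was 1.116 over the 8 genes and 1.13 over all genes with both peaks. Background coverage of H3K27ac was 1.173 fragments in WT and 0.748 in KO. The share of all genes with an interval above 1 was not computed for KO over WT. At the other 6 genes with peaks in all 4 lists, no interval left out 1 in any of the 4 comparisons of stimulus or genotype. Beyond the starts, H3K27ac peaks within 100 kb of the 10 genes covered 310.4, 272.6, 280.3 and 207.1 kb in WT, WTLPS, KO and KOLPS, in 323, 291, 431 and 413 peaks. The whole lists held 83461, 77050, 81404 and 78202 peaks, and the median protein-coding gene had 8, 7, 8 and 7 within 100 kb. Background coverage was lower in KO (0.748) and KOLPS (0.801) than in WT (1.173) and WTLPS (1.198). Its part in the number and length of peaks was not tested. Atf3 alone held 108.62 kb in WT and 67.76 kb in WTLPS, and without it coverage with LPS was 1.015 times that without, in place of 0.878 times.

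**Figure D5:**
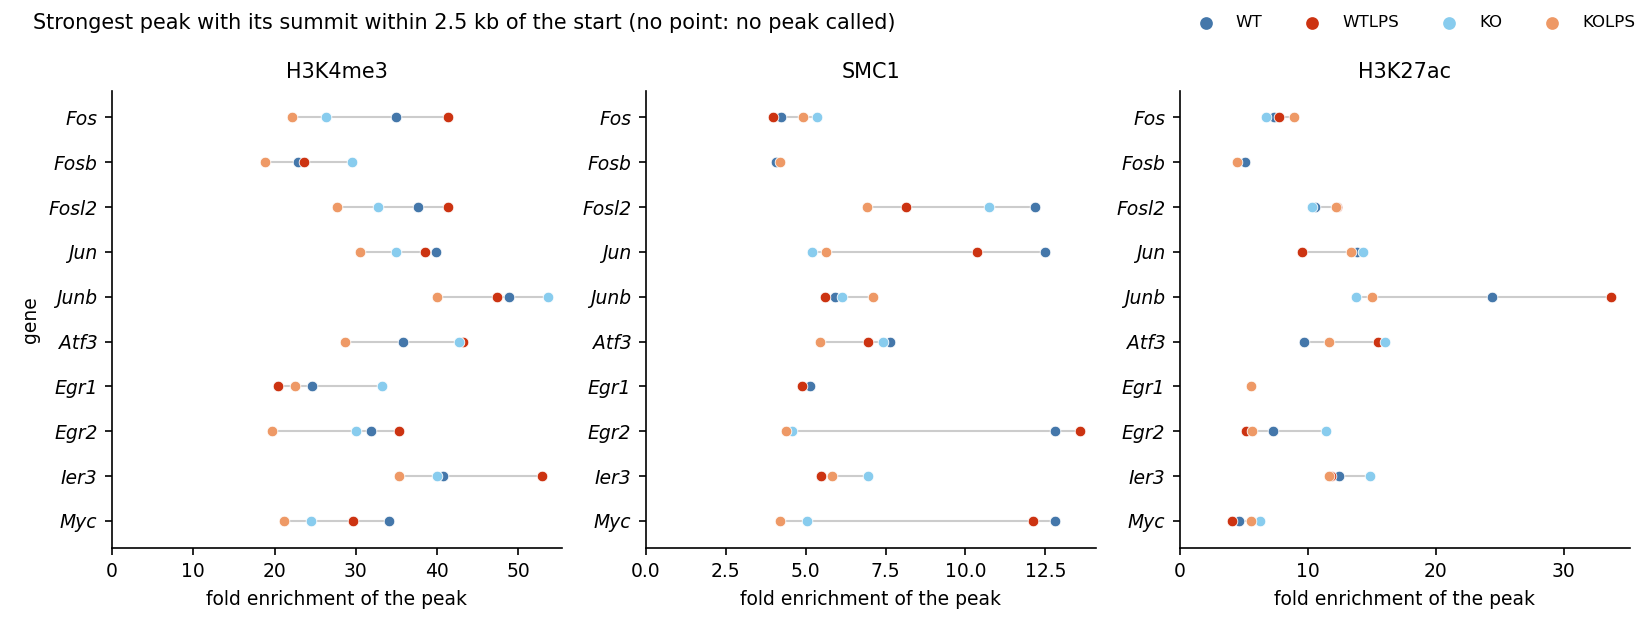
Deposited fold enrichment (x axes, starting at 0) of the strongest H3K4me3, SMC1 and H3K27ac peak whose summit lies within 2.5 kb of each start, coloured by condition; a missing point means that no peak was called. SMC1 is lower in KO than WT and in KOLPS than WTLPS beyond counting error at Jun, Egr2 and Myc. At Fosl2 and Atf3 it is lower within counting error. H3K4me3 is lowest in KOLPS at 9 of 10 genes.

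The 45 other genes of the same kind gave the wider setting. With a promoter peak there were 24, 23, 11 and 7 for CTCF in WT, WTLPS, KO and KOLPS, 33, 33, 31 and 23 for SMC1, 3, 7, 1 and 7 for p65, and 9 and 6 for STAT5 in WT and KO. H3K4me3 lay at 43, 44, 43 and 43 of them, H3K27ac at 36, 34, 37 and 36, H3K4me1 at 40, 39, 40 and 31 and H3K27me3 at 9, 6, 12 and 2. As at the 10 genes, CTCF was called at fewer promoters in the KO lists and p65 at more after LPS in both genotypes. More p65 peaks within 100 kb in WTLPS than in WT were found at 21 of the 45 and fewer at 0.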

How the data were processed

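Tagmentation ChIP-seq libraries were sequenced as read pairs. Per the labels, the authors aligned reads to mm10 with BWA 0.7.12, removed duplicates with Picard 1.77 and called peaks with MACS2 2.1.2, while the methods of the study name later versions. The study's methods give 2 biological replicates per condition, with peaks called for every sample and replicate, but the labels do not say which replicate, or whether pooled ones, a deposited list holds. Each deposited peak has a fold enrichment over local background (a ratio), the −log10 of its p-value and of its q-value and an integer score, which was not used. H3K4me1 and H3K27me3 lists are broad peaks without summits. The 4 input samples had no list and were not analysed here.

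Peaks of the 30 lists were assigned to 10 genes (GENCODE vM21, longest transcript) when they touched the promoter or window by at least 1 bp. The members, the 45 other genes and the markers were chosen with earlier results of these data known. All 10 members are named. Named single peaks are, for each member, the strongest p65 peak in WTLPS and the strongest STAT5 and CTCF peaks in WT by deposited fold, plus the promoter peaks; other sites, among them the second strongest and those that moved the other way, were chosen after their values were seen. Of the other genes, up to 4 with the highest fold are named among those with p65 at the promoter in WTLPS and not in KOLPS, and up to 4 with it in both; the 3 with it in KOLPS alone were added after their values were seen.

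Lists hold no read counts, so that depth was recovered: the whole number of fragments and the background that give back both fold and −log10 p within 0.002 were solved for each narrow peak. They matched 100% of up to 1500 peaks per list, drawn from those below an upper limit of −log10 p. The step recovered 100% of 397 peaks simulated with the same formulas. This checks the solving alone, and not whether deposited peaks follow these formulas. Background coverage ran from 0.705 fragments (p65 in KO) to 5.765 (SMC1 in WTLPS). Ratios between libraries have exact (Clopper-Pearson) conditional binomial intervals. They compare libraries, not conditions. Motifs were searched on both strands in RefSeq promoters and within 50 bp of summits. All peak ends lay within the GRCm38.p6 chromosomes. Alternatives were a stricter p, a promoter of 1 kb, a window of 50 kb, all annotated starts, peak midpoints, a common lowest p, thinning of the library with higher coverage and leaving out the member with most peaks. After seeing the data, the strongest promoter peak was also taken by its summit. Python 3.11.15, numpy 2.4.6, pandas 2.3.3, SciPy 1.17.1, pysam 0.24.0, samtools 1.23.1 and matplotlib 3.10.9 were used.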

Additional observations from a re-analysis of the deposited data

Results flagged for a closer look

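In 4 measures the change with LPS went one way in WT cells and the other way in KO cells, with 1 list each, so that the difference was not tested. The number of the 10 promoters with SMC1 changed by -1 with LPS in WT and by 1 in KO, through Fosb in both. The number with H3K27ac changed by -1 in WT and by 2 in KO, through Fosb in WT and through Fosb and Egr1 in KO. H3K4me1 peaks within 100 kb changed by -21 in WT and by 4 in KO, and the length they covered by 29 kb in WT and by -221.1 kb in KO. The KOLPS list of H3K4me1 also ended at a higher p-value limit (lowest −log10 p 2.604) than those of WT (2.255), WTLPS (2.237) and KO (2.328), and its part in the difference was not tested.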

How the results depend on the processing

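Over 45 results and 180 alternative values, 151 stayed within the limit set (1.5 times for counts and lengths, the counting interval for ratios of peak numbers), 27 moved and 2 reversed; the cause was not tested. No paired analysis was possible because each antibody and condition has 1 list and no test was made. With stricter peaks, the ratio of p65 peaks in KOLPS to WTLPS was 1.118 in place of 0.688, SMC1 gave 0.5 for KO over WT and 0.418 for KOLPS over WTLPS, and promoter counts were 0 for p65 in KO, 0 for CTCF in KOLPS, 6 for H3K27ac in KOLPS and 0 for H3K27me3 in KO, which was also 0 at the common lowest −log10 p of 3.469. Without Atf3, H3K27ac kb in WTLPS over WT was 1.015. With promoters of 1 kb, CTCF lay at 1 gene in KO and 0 in KOLPS, STAT5 at 1 in WT and 1 in KO, H3K27me3 at 0 in WT and 0 in WTLPS, and H3K4me1 at 4, 2, 0 and 2 in WT, WTLPS, KO and KOLPS. With peak midpoints, H3K4me1 lay at 5, 3, 2 and 2, and H3K27me3 at 1 in WT and 0 in WTLPS. With all annotated starts, CTCF in KOLPS lay at 2 and H3K4me1 in KOLPS at 8. By summits, chosen after seeing the data, the median SMC1 fold ratio at promoters was 0.925 in place of 0.497 for KO over WT and 0.818 in place of 0.516 for KOLPS over WTLPS. Depth limits ratios of small peaks, since 7 fragments could already make a p65 peak in WT, KO and KOLPS, 6 in WTLPS, and 5 an H3K27ac peak in KO and KOLPS.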
